A study of Mus musculus with 4 samples.

Results

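This report describes Myo6 and 9 other myosin heavy chain genes, 10 of the 26207 genes measured, in mouse T helper 2 (Th2) cells. The members are the rows named Myo6, Myo1c, Myo1d, Myo1e, Myo1f, Myo1g, Myo5a, Myo9b, Myo18a and Myh9, and all 10 were present. They were chosen by gene name with their dopamine and PBS values already known, and Myo6 was to be set against the others. Their levels and fold changes between the groups are therefore given as a description, with no p-value. Where a member is said to be called, this only says that a fit over all genes put it past the threshold, and nothing is supported with it. RNA-seq had been run in bulk on 4 libraries of Th2 cells, for which the labels give spleen as the tissue: 2 from cells given 10 µM dopamine and 2 from cells given phosphate-buffered saline (PBS). Dopamine is a catecholamine, and the study's title concerns sympathetic nerves of the lung and Th2 memory cells. The labels give no genotype, strain, age or time of treatment, and do not say if the 2 libraries within a group are from different animals or cultures. P-values below therefore measure the spread between these libraries only, which may be technical. The libraries are called dopamine A, dopamine B, PBS A and PBS B, where A and B only name columns.

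Myosins are motors that pull on actin filaments. Class II myosins such as that of Myh9 form filaments and contract the cell cortex, class I myosins tie membranes to actin, and class V myosins carry vesicles toward the outward-facing end of filaments. Myosin VI, the product of Myo6, moves the other way, toward the inward-facing end, and is known for work in endocytosis, in the maturing of autophagosomes and in the hair cells of the inner ear. T cells use myosins to crawl and to shape the contact with an antigen-presenting cell.

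The 300-base windows around the start sites of Myo6, the member that was far lower with dopamine, and of Myo1g, an abundant member that was higher, are shown because these genes differed most in opposite directions among the abundant members. Both come from RefSeq on GRCm38.p6, whose coordinates are those of mm10, and run 5′ to 3′ on the gene's strand from 250 bases before the start. Capitals mark GC boxes (GGGCGG on either strand) and TGACG, the core of the cAMP response element.
Myo6, chr9:80164784-80165083, plus strand: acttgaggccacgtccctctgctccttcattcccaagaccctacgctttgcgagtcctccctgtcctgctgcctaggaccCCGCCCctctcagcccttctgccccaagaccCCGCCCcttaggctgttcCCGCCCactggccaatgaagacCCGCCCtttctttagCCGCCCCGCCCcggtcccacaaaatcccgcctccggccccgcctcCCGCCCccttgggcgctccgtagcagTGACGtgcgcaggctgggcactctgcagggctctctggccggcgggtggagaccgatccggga
Myo1g, chr11:6520909-6521208, minus strand: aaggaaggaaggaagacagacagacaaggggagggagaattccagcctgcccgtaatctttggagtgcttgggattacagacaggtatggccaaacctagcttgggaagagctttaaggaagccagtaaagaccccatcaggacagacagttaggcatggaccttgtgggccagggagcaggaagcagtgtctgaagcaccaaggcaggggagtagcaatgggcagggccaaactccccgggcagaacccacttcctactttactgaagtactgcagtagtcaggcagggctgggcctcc

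The Myo6 window was 68.3% G and C and held 7 GC boxes, between 170 and 39 bases before the start, of which the boxes starting 84 and 79 bases before it overlap. Windows with at least 7 GC boxes made up 0.628% of 32817 promoter windows of this length. It also held 1 TGACG, starting 13 bases before the start, a sequence found in 20.8% of all windows. The Myo1g window was 55.0% G and C and held none of the 8 motifs searched. The others searched, on both strands and with their share of all windows, were the full cAMP response element TGACGTCA (1.79%), which contains TGACG, the AP-1 site TGANTCA (7.81%), the box CCACACCC (3.56%), TTCNNNGAA of STAT factors (8.29%), GAAANNGAA of interferon response elements (8.55%) and TATAAA (13.6%). GC boxes were found in 35.6% of all windows. Of the 9 members with a window, 7 had a GC box in at least 1. These matches are descriptions of the letters only.

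Myo6 lies on chromosome 9 from 80165031 to 80311729 on mm10 (GENCODE M21), spanning 146699 bases with 12.1 kb of exons. It had 698 and 811 normalized counts in the dopamine libraries A and B, against 2908 and 3357 in the PBS libraries A and B. Normalized counts are the authors' read counts divided by 1 size factor per library. Both dopamine libraries were far below both PBS libraries, and these values rest on 905 and 835 reads with dopamine, against 1712 and 4381 with PBS. The means were 754 ± 79.6 with dopamine and 3132 ± 317 with PBS (SD, n = 2 each), so the PBS mean was 4.15 times the dopamine mean. The log2 fold change, dopamine over PBS on the log2(value + 1) scale, was -2.05 with a standard error (SE) of 0.08, and -2.25 when libraries were rescaled on abundant genes. In the authors' deposited table it was -2.06.

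Among the 2258 genes with a mean of at least 1000 normalized counts, Myo6 had the lowest log2 fold change, and among the 8492 with a mean of at least 100 it had the 11th lowest. In bulk RNA, fewer cells that make a transcript and less of it per cell cannot be told apart. An antisense gene inside the Myo6 locus, Gm27227, shares no exon bases with it and had at most 5 reads in a library. It had 1 and 0 reads in dopamine A and B, against 5 and 5 in PBS A and B. On these few reads its log2 fold change was -2.35 (limma adjusted p = 0.0404). The strand setting of the counting is not given in the sources used here.

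**Figure D1:**
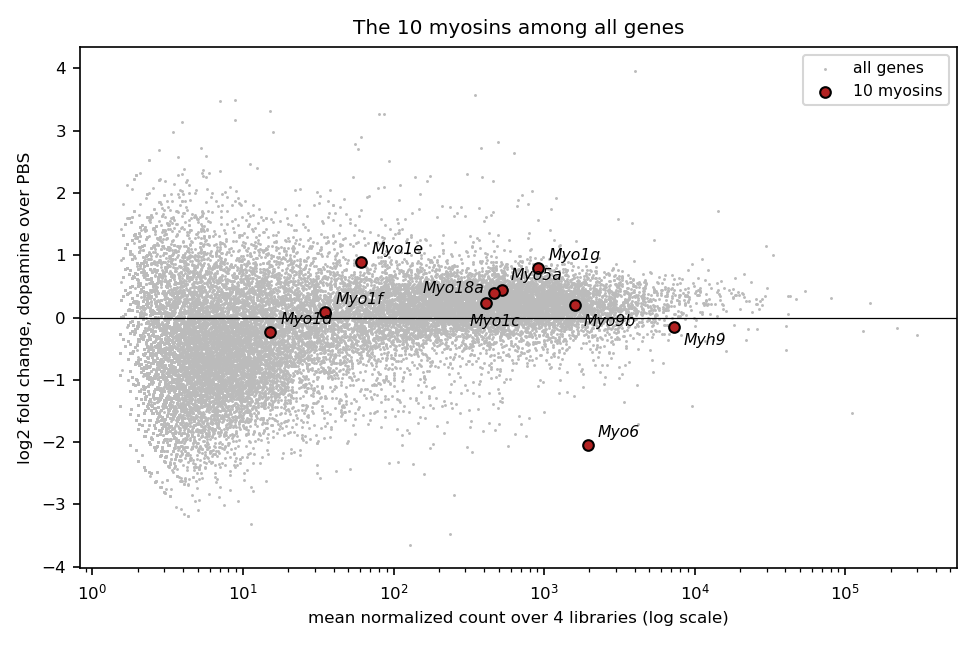
Each grey point is a gene, by its mean normalized count over the 4 libraries (log scale) and its log2 fold change, dopamine over PBS, and red points are the 10 myosins. Myo6 sits at -2.05, apart from the other 9, which lie between -0.24 and 0.88.

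Across all genes, the authors' scaling and limma (adjusted p under 0.05, Benjamini-Hochberg) called 5577 of 26207, or 21.3%, with 3743 higher (14.3%) and 1834 lower (7.00%). Higher calls were 67.1% of the calls, against 36.3% when libraries were rescaled so that abundant genes (mean 100 or more) had almost no median change, 39.0% with upper-quartile scaling in edgeR and 53.5% with TMM in edgeR, both after edgeR's filter on low counts. It was 65.5% with TMM in edgeR and no filter, 65.0% with TMM scaling in limma and 81.3% among genes averaging 5 CPM or more. The rescaling moved the median log2 fold change of those abundant genes to 0.003, against 0.198 in the authors' scaling, so a log2 fold change of this size in an abundant gene depends on the scaling. The count of calls was 3261 in DESeq2, 2914 without PBS A and 3276 without dopamine B. Genes with a mean under 20 had a median of -0.52. Totals were 14167357 and 11492182 reads in dopamine A and B, and 5717408 and 13241168 in PBS A and B, so PBS A was the shallowest and 1 read there was worth 1.70 normalized counts, against 0.766 to 0.971 elsewhere. T cell markers were abundant in the labelled Th2 cells: Trbc2 averaged 9369 with dopamine and 7964 with PBS, and Lck 5622 with dopamine and 5109 with PBS. Their log2 fold changes were 0.24 and 0.14 in the authors' scaling, and 0.04 and -0.06 when rescaled on abundant genes. Trac, another T cell marker named after its values were seen, averaged 4859 over all libraries with a log2 fold change of -0.27. The Th2 factor Gata3, named after its values were seen, was at 207 and 241 with dopamine, against 243 and 231 with PBS.

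Of the 10 members, 4 were called higher and 1 lower, beside the 14.3% and 7.00% of all genes. Of the 10, 7 had a mean of at least 100, a level at which 39.1% of all genes were called higher and 7.90% lower. Since the members were chosen with this contrast known, nothing is read from the counts. With libraries rescaled on abundant genes 3 were higher and 2 lower, and without PBS A 2 were higher and 1 lower. Both dopamine libraries lay above both PBS libraries for 6 members and below them for 1, where 28.5% and 30.4% of all genes did so. All genes together had a median log2 fold change of -0.08, but abundant ones (mean 100 or more), as 7 of the members were, had 0.198. The median of the 10 members was 0.21, near that of abundant genes, and that of the 9 members other than Myo6 was 0.23. Myo6 minus that median of 9 was -2.28 on the log2 scale.

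Myo1g encodes a class I myosin of blood cells that sits at the T cell membrane and shapes how T cells search. It had 1075 and 1226 normalized counts with dopamine, against 623 and 706 with PBS, and the groups did not overlap. The log2 fold change was 0.79 (SE 0.09), or 0.60 when rescaled on abundant genes. Myo1e, whose product is known in endocytosis and in the filtering cells of the kidney, was 87.2 and 70.9 with dopamine, against 37.4 and 47.5 with PBS. Both dopamine libraries were higher, with a log2 fold change of 0.88 (SE 0.22) that was called in limma but not in DESeq2, nor without PBS A (0.71) or without dopamine A (0.74). It rests on 113 and 73 reads with dopamine and 22 and 62 with PBS.

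None of the other class I members was called. Myo1c, a motor of hair cell adaptation and of glucose transporter delivery, was 443 and 448 with dopamine, against 370 and 390 with PBS. These groups did not overlap, but the log2 fold change of 0.23 (SE 0.10) was not called and was 0.03 when rescaled. Myo1f, known for neutrophil migration, was 36.3 and 34.96 with dopamine, against 25.5 and 43.7 with PBS, so the dopamine libraries lay inside the PBS range. Myo1d, known for left-right asymmetry in the fruit fly, was 12.3 and 14.6 with dopamine, against 22.1 and 11.5 with PBS, values that rest on 13 to 16 reads in each library, and the groups overlapped. Its log2 fold change was -0.24 with a 95% interval from -1.06 to 0.58, and that of Myo1f was 0.09 with one from -0.48 to 0.65. Both changed sign without PBS A, to 0.21 for Myo1d and -0.29 for Myo1f.

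Myo5a, the vesicle motor behind the dilute coat colour of mice, was 596 and 614 with dopamine, against 447 and 444 with PBS. The groups did not overlap, and the log2 fold change was 0.44 (SE 0.10), or 0.25 when rescaled. Myo18a, which encodes a myosin with little motor activity that links the Golgi to actin, was 515 and 536 with dopamine, against 389 and 406 with PBS. Its log2 fold change was 0.40 (SE 0.10), was 0.21 and no longer called when rescaled or with upper-quartile scaling, and was not called without PBS A (0.37) or without dopamine B (0.37).

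Myo9b, a motor that also switches off the GTPase RhoA, was 1620 and 1794 with dopamine, against 1430 and 1552 with PBS. The groups did not overlap, but the log2 fold change of 0.19 (SE 0.08) was not called over all genes in the authors' scaling, was called higher without dopamine A (0.27) and among genes averaging 5 CPM or more, and was near 0 when rescaled. Its exons share 116 bases with Haus8 on the opposite strand, which had 262 and 282 normalized counts with dopamine, against 262 and 244 with PBS. Myh9, encoding the heavy chain of nonmuscle myosin IIA, the main class II myosin of T cells, was 6452 and 7291 with dopamine, against 7194 and 8015 with PBS. The groups overlapped, and the log2 fold change of -0.15 (SE 0.06) was not called in the authors' scaling over all genes. It was called lower with TMM scaling in limma (-0.17), and it was -0.34 and called lower when rescaled, -0.25 and called lower in edgeR with TMM, and -0.24 and called lower without dopamine B.

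**Figure D2:**
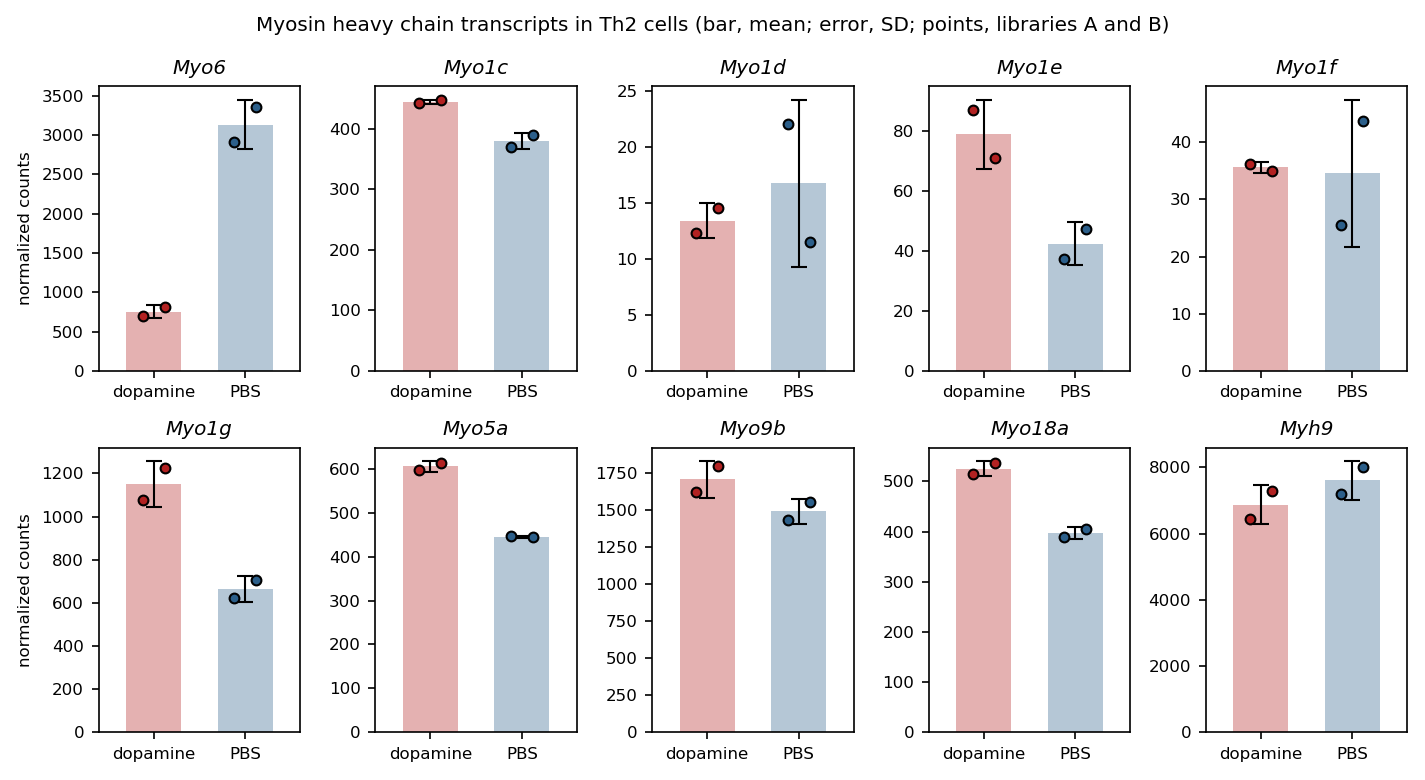
Normalized counts of each myosin (axis from 0, its own scale in each panel), with a bar for the mean of 2 libraries, an error bar for the SD and a point for each library, dopamine left and PBS right. Myo6 is lower in both dopamine libraries than in both PBS libraries, while Myo1c, Myo1e, Myo1g, Myo5a, Myo9b and Myo18a are higher in both.

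**Figure D3:**
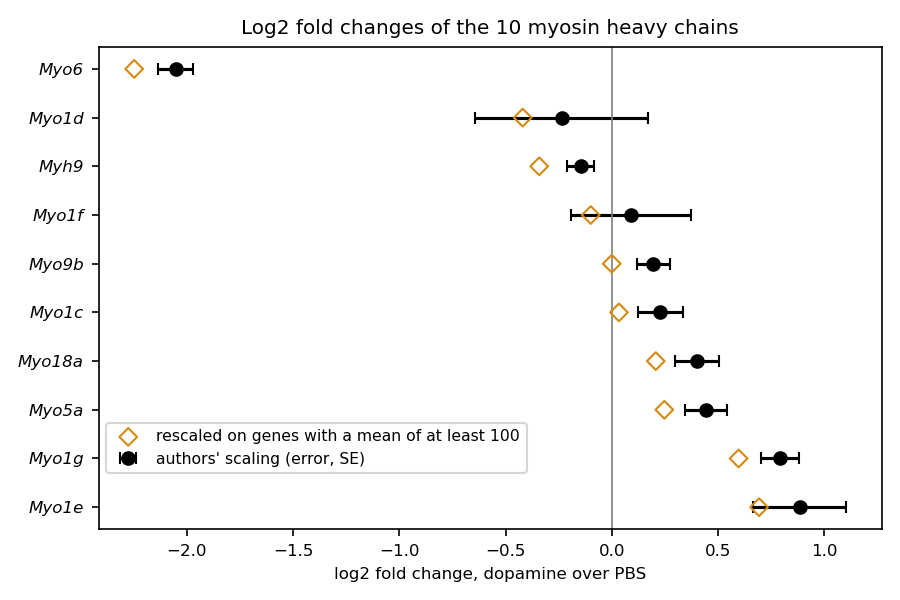
Log2 fold change of each myosin, dopamine over PBS, in the authors' scaling (filled circle, error bar SE) and after rescaling on abundant genes (mean 100 or more; open diamond). Rescaling lowers each value; Myo6 stays the lowest, at -2.05 and -2.25, and Myo9b and Myo1c come to lie near 0.

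To compare levels between genes, normalized counts were divided by kilobases of all annotated exons, which understates genes with many alternative exons. In the dopamine libraries the order per kilobase was Myh9 (532 ± 45.9), Myo9b (228 ± 16.4), Myo1g (165 ± 15.3), Myo1c (67.6 ± 0.517), Myo6 (62.5 ± 6.59), Myo5a (40.9 ± 0.828), Myo18a (32.8 ± 0.945), Myo1e (13.9 ± 2.02), Myo1f (7.16 ± 0.185) and Myo1d (2.08 ± 0.243), as mean ± SD of 2 libraries. No 2 neighbours in that order overlapped between libraries, though the means of Myo1c and Myo6 differed by less than the SD of Myo6. In the PBS libraries Myo6 was the second, at 259 ± 26.3, below Myh9 at 588 ± 44.9 and above Myo9b at 199 ± 11.5 and Myo1g at 95.5 ± 8.36. The order from Myo1c down was then as with dopamine, without Myo6, and only Myo1e (7.44 ± 1.26) and Myo1f (6.96 ± 2.59) overlapped.

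As a share of the summed level per kilobase of the 10 myosins, Myo6 made up 5.30% and 5.54% with dopamine, against 20.01% and 20.7% with PBS. Myh9 made up 45.7% and 46.6% with dopamine, against 46.2% and 46.3% with PBS, and Myo1g 14.2% and 14.6% with dopamine, against 7.45% and 7.57% with PBS. These shares are taken within a library, so they do not depend on its size factor. The summed level per kilobase of the 9 members other than Myo6 was 1034 and 1144 with dopamine, against 963 and 1062 with PBS, and the groups overlapped. For 1 unit of Myo1g per kilobase there were 0.374 and 0.381 units of Myo6 with dopamine, against 2.69 and 2.74 with PBS. For 1 unit of Myh9 there were 0.116 and 0.119 with dopamine, against 0.433 and 0.448 with PBS. Libraries of a group lay close together in both ratios, and the groups were far apart.

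**Figure D4:**
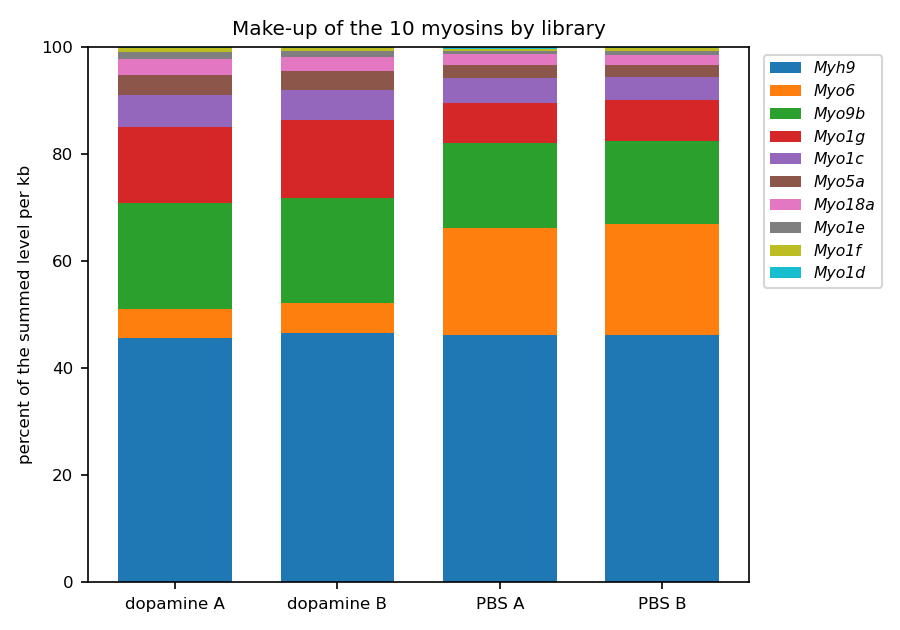
Percent of the summed normalized count per kilobase of the 10 myosins that each made up, by library, dopamine left of PBS. The Myo6 part is 5.30% and 5.54% with dopamine and 20.01% and 20.7% with PBS, while the Myh9 part is 45.7% to 46.6% in all 4.

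The remaining 28 myosin heavy chain genes were mostly near the limit of detection, with 20 below a mean of 20 normalized counts. By limma 2 rose and 8 fell (median log2 fold change -0.59), and 1 rose and 9 fell when rescaled. Over all genes 14.3% were called higher and 7.00% lower, with a median of -0.08, and over all genes with a mean under 20 the median was -0.52 and 5.28% were called lower. Of the 8 that fell, 7 had a mean under 100, and at a mean of 20 to 100 the share of all genes called lower was 12.6%. Myo10, whose motor builds filopodia, rose to 256 and 278 with dopamine, against 170 and 182 with PBS (log2 fold change 0.60, SE 0.13, adjusted p = 4.00e-04). Myo19, a motor of mitochondria, was 176 and 189 with dopamine, against 134 and 123 with PBS (0.50, adjusted p = 0.00966), a call that ended when rescaled (0.31), with upper-quartile scaling, in DESeq2, and without dopamine B or PBS B. Myh10, encoding nonmuscle myosin IIB, fell to 155 and 145 with dopamine, against 195 and 228 with PBS (-0.49, adjusted p = 0.00771), but was not called in DESeq2 or without dopamine B or PBS B. Myo9a, which like Myo9b acts on RhoA, was 452 and 451 with dopamine, against 499 and 422 with PBS (log2 fold change -0.02, 95% interval -0.24 to 0.19, adjusted p = 0.895), and Myo7a, known from deafness, was 76.4 and 93.2 with dopamine, against 86.6 and 96.5 with PBS (adjusted p = 0.705). The number called among these 28 was 6 without dopamine A, 2 without dopamine B, 4 without PBS A and 6 without PBS B.

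Myosin heavy chains carry light chains, and those of the unconventional classes carry calmodulin. Of 15 light chain and calmodulin genes measured of 16 listed, 4 rose and 1 fell (median log2 fold change -0.12), but 1 rose and 2 fell when rescaled. Over all genes 14.3% were called higher and 7.00% lower. Of the 15, 6 had a mean of at least 100, a level at which 39.1% of all genes were called higher and 7.90% lower. Myl10 (higher, mean 29.4 with dopamine) and Myl6b (lower, mean 9.28), whose products are light chains, are named here after their values were seen. Calm2 and Calm3, which encode calmodulin, had log2 fold changes of 0.07 (adjusted p = 0.433) and 0.04 (adjusted p = 0.726), and -0.12 and -0.16 when rescaled. Myl6, an essential light chain, was 4957 and 4994 with dopamine, against 4060 and 4196 with PBS (0.27, adjusted p = 8.17e-04). Myl12a, a regulatory light chain, was 2686 and 2889 with dopamine, against 2171 and 2348 with PBS (0.30, adjusted p = 9.37e-04). Neither was called when rescaled (0.07 and 0.11), with upper-quartile scaling or without PBS A. The number of light chain genes called was 3 without dopamine A, dopamine B or PBS B and 2 without PBS A.

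Myosin II is switched on by kinases that phosphorylate its light chains downstream of RhoA, and off by myosin phosphatase. Of 17 such regulators, 6 rose and 1 fell (median 0.13), and 4 rose and 5 fell when rescaled. Of the 17, 13 had a mean of at least 100, a level at which 39.1% of all genes were called higher and 7.90% lower. The gene that fell, named after its values were seen, is Mylk, the myosin light chain kinase of smooth muscle, at 25.5 and 27.2 with dopamine, against 91.7 and 75.9 with PBS (-1.63, adjusted p = 5.22e-07). Cdc42bpa, a kinase that phosphorylates myosin light chains downstream of Cdc42, rose to 214 and 214 with dopamine, against 102 and 106 with PBS (log2 fold change 1.03, SE 0.15, adjusted p = 3.67e-07). Arhgef1 (0.52, adjusted p = 1.88e-05) and Arhgef2 (0.42, adjusted p = 8.87e-05), which switch RhoA on, and Ppp1r12c (0.40, adjusted p = 1.40e-04), a subunit of myosin phosphatase, also rose, and these calls held in each alternative. The RhoA kinase gene Rock2 was 0.32 (adjusted p = 0.00141) and neither this nor the myosin chaperone Unc45a (0.32, adjusted p = 0.0411) was called when rescaled or with upper-quartile scaling. Unc45a also lost its call in DESeq2, in edgeR with TMM with or without the filter, with a pseudocount of 0.1, and without dopamine A, dopamine B or PBS A. Rock1 was at -0.03 (adjusted p = 0.782), but called lower at -0.23 when rescaled, and Ppp1cb, the catalytic subunit of myosin phosphatase, was at 0.13 (adjusted p = 0.177), or -0.07 when rescaled.

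Myosin VI finds its cargo through adaptor proteins. Of 10 adaptor and partner genes, 2 rose and 1 fell (median 0.09), and 1 rose and 1 fell when rescaled. Over all genes 14.3% were called higher and 7.00% lower. Of the 10, 5 had a mean of at least 100, a level at which 39.1% of all genes were called higher and 7.90% lower. Gipc1, which joins myosin VI to endocytic vesicles, rose to 585 and 630 with dopamine, against 392 and 423 with PBS (log2 fold change 0.57, SE 0.10, adjusted p = 1.81e-05). Tax1bp1, an autophagy receptor that binds myosin VI, was 4437 and 4392 with dopamine, against 3780 and 3899 with PBS (0.20, adjusted p = 0.0157), a call that ended when rescaled (0.01), in edgeR with TMM after the filter, with upper-quartile scaling and without any 1 of the 4 libraries. The member that fell is Optn, another autophagy receptor, named here after its values were seen, at 50.9 and 42.7 with dopamine, against 83.2 and 74.3 with PBS (-0.74, adjusted p = 0.00815). Lrch3 (0.08, adjusted p = 0.550) and Tollip (0.10, adjusted p = 0.508) were not called. The number called was 3 without dopamine A, 2 without PBS B and 1 without dopamine B or PBS A.

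Of 10 cargo partners of the Myo5a motor, 5 rose and 0 fell (median 0.12), but 1 rose and 3 fell when rescaled. Of the 10, 7 had a mean of at least 100, a level at which 39.1% of all genes were called higher and 7.90% lower. Dynll1, a light chain shared by class V myosin and dynein, rose to 1399 and 1468 with dopamine, against 895 and 945 with PBS (log2 fold change 0.64, SE 0.08, adjusted p = 3.00e-08), in each alternative. Rab8a (0.27, adjusted p = 0.00580), Rilpl2 (0.34, adjusted p = 0.0109), Rab11a (0.34, adjusted p = 0.0131) and Dynll2 (0.31, adjusted p = 0.0341) passed as well, but none of these 4 did when rescaled or without PBS A. Rab27a, which ties granules to class V myosin, was 1558 and 1607 with dopamine, against 1536 and 1674 with PBS (-0.02, adjusted p = 0.889), and was called lower at -0.21 when rescaled, as was Rab10 (-0.08, adjusted p = 0.525, and -0.28 when rescaled). The number called was 2 without dopamine A, 3 without dopamine B, 1 without PBS A and 4 without PBS B.

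Of 16 actins, tropomyosins and filament binders, 9 rose and 2 fell (median 0.28), but 5 rose and 7 fell when rescaled, and 7 were called without PBS A. All but 1 of them had a mean of at least 100, a level at which 39.1% of all genes were called higher and 7.90% lower. Tmsb4x, which holds actin monomers, rose to 22541 and 22692 with dopamine, against 14154 and 15074 with PBS (log2 fold change 0.63, SE 0.05, adjusted p = 2.19e-13). Coro1a (0.46, adjusted p = 4.15e-07), the actin binder of T cell survival, Tpm3 (0.42, adjusted p = 3.92e-06), a tropomyosin, and Cfl1 (0.35, adjusted p = 4.22e-06), which severs filaments, rose too. Actb, encoding beta-actin, was at 0.31 (adjusted p = 1.33e-06), but not called with upper-quartile scaling in edgeR. Actn1, which crosslinks filaments and anchors them at adhesions, fell to 326 and 373 with dopamine, against 559 and 687 with PBS (-0.83, SE 0.11, adjusted p = 5.50e-08), in each alternative. Tpm2, a tropomyosin named after its values were seen, also fell, to 3.86 and 8.74 with dopamine, against 18.7 and 14.6 with PBS (-1.35, adjusted p = 0.0387). Lcp1, a filament bundler, was at 0.04 (adjusted p = 0.666), but called lower at -0.16 when rescaled, and Flna, a crosslinker, was at -0.02 (adjusted p = 0.876), but called lower at -0.21.

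**Figure D5:**
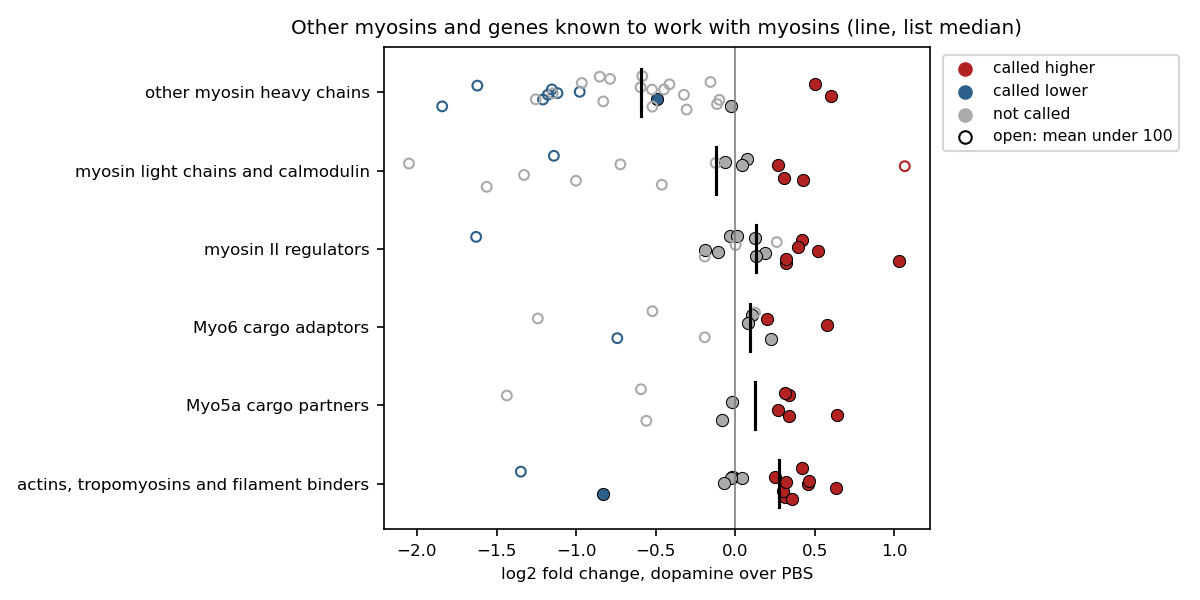
Log2 fold change, dopamine over PBS, of each gene of 6 lists (a point per gene, spread up and down only for sight), red where called higher, blue where called lower and grey where not called, with open points for genes with a mean under 100 and a black line at the list median. Medians run from -0.59 for the other myosin heavy chains to 0.28 for actins and their binders. Of these heavy chains 20 of 28 had a mean under 20, a level at which the median of all genes was -0.52. Of the actins and binders 15 of 16 had a mean of at least 100, a level at which it was 0.198.

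The 5 genes most like Myo6 over the 4 libraries, by the smallest root mean square difference of centred log2(value + 1) among 8222 other genes with a mean of at least 100 (predicted gene models left out), were Ifi213 (0.0642), Nsg2 (0.104), St6gal1 (0.127), Igfbp4 (0.135) and Rragd (0.138). Ifi213, a gene of the interferon-inducible Pyhin family, was 103 and 130 with dopamine, against 438 and 552 with PBS. Like Myo6, it was lower in library A than B of each group, as were Nsg2 and St6gal1. Nsg2, a vesicle protein gene known from neurons, was 314 and 321 with dopamine, against 1072 and 1323 with PBS. St6gal1, a sialyltransferase gene, was 268 and 284 with dopamine, against 1004 and 1011 with PBS. Igfbp4, which encodes a binding protein of insulin-like growth factors, was 231 and 211 with dopamine, against 905 and 940 with PBS, and Rragd, a GTPase gene of lysosomal nutrient sensing, 92.6 and 92.2 with dopamine, against 333 and 342 with PBS. These genes were found by their likeness in this contrast, so their fall is not a separate result.

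Of 10 helper T cell markers 4 rose and 2 fell, with sums of 32174 and 33408 normalized counts with dopamine, against 29175 and 30876 with PBS. Of these 10, 9 had a mean of at least 100, a level at which 39.1% of all genes were called higher and 7.90% lower. Over all genes 14.3% were called higher and 7.00% lower. Markers of other cell types moved with the same groups. Of 8 platelet and red cell markers 7 fell and 0 rose, and their summed normalized counts were 503 and 433 with dopamine, against 1860 and 1586 with PBS, with Pf4 and Itga2b the most abundant. Of 10 basophil and mast cell markers 8 fell and 1 rose (summed 1568 and 1502 with dopamine, against 2864 and 2443 with PBS), where Cpa3 fell and Cyp11a1, which Th2 cells can also make, rose. Of 9 monocyte, macrophage and granulocyte markers 5 fell and 0 rose, at sums of 120 and 117 with dopamine, against 272 and 265 with PBS. The most abundant were Fcgr3 and Lyz2, which both fell. Fcgr3 was 27.0 and 29.1 with dopamine, against 76.4 and 58.2 with PBS (log2 fold change -1.22). Lyz2 was 18.5 and 28.2 with dopamine, against 64.6 and 67.4 with PBS (log2 fold change -1.49). Ly6g, S100a8 and S100a9, which mark granulocytes and are named after their values were seen, were at 0 in dopamine B and at most 6.79 elsewhere. Of 10 B cell markers 5 rose and 0 fell (483 and 470 with dopamine, against 234 and 207 with PBS), with Ms4a1 at 111 and 99.0 with dopamine, against 32.3 and 22.2 with PBS. Cd79b was 114 and 125 with dopamine, against 51.0 and 46.0 with PBS. Of 6 CD8 and natural killer cell markers 2 rose and 0 fell (522 and 500.1 with dopamine, against 275 and 241 with PBS). Eomes was 295 and 283 with dopamine, against 139 and 133 with PBS. Cd8b1, which was not called, was 93.3 and 103 with dopamine, against 76.4 and 70.5 with PBS. Cd8a, named after its values were seen, averaged 68.4 over all libraries with a log2 fold change of 1.96. The part of these cell types in the values of the myosins was not tested.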

How the data were processed

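Total RNA was turned into stranded mRNA libraries with a commercial kit, per the labels' protocols. FastQC 0.11.2, TopHat2 2.0.13, HTSeq 0.6, DESeq2, R 3.6.2 and mm10 are named per the submitters' processing notes. Per the file headers, the authors deposited 1 DESeq2 table with log2 fold changes, p-values, a Wald score, and normalized counts, here treated as a signal, for 4 libraries. Columns carry the numbers 2 and 3 where titles have 1 and 2, so each was matched to its group only. In these columns 100% of values were whole multiples of 1 read (tolerance 0.01), so reads were recovered. Limma 3.58.1 (R 4.3.3, mean-variance trend, 2-sided, no filter) was fitted to log2(value + 1) over all 26207 genes, with Benjamini-Hochberg adjustment at 0.05. With 42.4 prior degrees of freedom, its p-values rest mostly on spread pooled over genes. Alternatives used a pseudocount of 0.1, a 5 CPM filter, other scalings, edgeR 4.0.16 and DESeq2 1.42.0 on recovered reads, a block, and each library left out. The tests were checked on simulated data with changes balanced in both directions, so this check does not bear on the choice of scaling. The members and lists were chosen with earlier results of these data known. Named are all members, per list up to 6 called genes of mean 100 or more in the higher group and up to 2 abundant uncalled ones, 2 markers per cell type by abundance, and the 5 genes nearest Myo6. 1 gene that the rule names is not reported here. Genes outside this rule are marked as chosen after their values were seen. Locations and exon lengths are from GENCODE M21, which gave a single location for 24693 symbols, and promoters from RefSeq.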

Additional observations from a re-analysis of the deposited data

How the results depend on the processing

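Myo6 was chosen on these same values, so its settings describe the value only. Its log2 fold change was -2.25 both when rescaled on abundant genes and with upper-quartile scaling in edgeR, and between -2.16 and -1.94 with a library left out. With DESeq2 the number of genes called was 3261 over all genes, 2 among other heavy chains, 3 among light chains and calmodulin and 2 among Myo5a partners. Among genes of at least 5 CPM it was 3 for other heavy chains and 3 for light chains, where fewer genes were tested and 8 of 10 members kept, and the rescaling gave 3 light chains. With 1 library left out, the lowest and highest counts were 2914 (without PBS A) and 4299 over all genes, 3 (without PBS A) and 5 for the members, 2 (without dopamine B) and 6 for other heavy chains, 2 and 3 for light chains, 1 and 3 for Myo6 adaptors, 1 and 4 for Myo5a partners and 7 and 10 for actins and binders. A replicate block on the column numbers called 8 members, 6 higher and 2 lower (Myo1c, Myo9b and Myh9 besides the 5), and 6999 genes. Same-numbered columns deviated together only weakly (correlation 0.125 over 11611 genes), and with 2 pairs the numbers do not show a pairing. Without a library, the lone one in its group is assumed to vary like the rest. The cause of the shifts was not tested. Low reads limit the precision for Myo1d, with 13 to 16 in each library, and for Myo1e and Myo1f, with 22 and 15 in PBS A, the shallowest library.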
